A study of Mus musculus with 12 samples.

Results

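Samples from mice taken 30 min after wounding of the skin were set against samples taken without wounding. The comparison holds 6 of the 12 arrays of the series, 2 labelled as taken 30 min after wounding (replicates 1 and 2) and 4 labelled as non-wounded (replicates 1 to 4), chosen by their titles. The table holds log2 values of 1246 probe sets on single-colour arrays. A gene name was found for 963 of them, 909 genes in all, among which enzymes that build or break down glycans, lectins, cytokines and their receptors are common. The other 6 samples were taken 0 h (1 sample), 2 h (4) and 4 h (1) after wounding and are not part of the comparison itself. The 2 h samples enter the estimate of the spread and the alternative fits by replicate number. All 6 enter the rescaling of samples and the mean level of each probe set. All titles carry the prefix B6. No genotype, treatment or transgene separates the groups in the labels, which give neither the age of the mice nor the kind of wound, nor whether replicates came from separate animals, so the spread behind each p-value may be technical. The labels call the material dendritic epidermal T cells (DETC), whereas the design text plans RNA of whole epidermis at rest or after wounding, with 30 min chosen as a time before a ligand of the DETC receptor appears at the cell surface. The material is thus described in 2 ways.

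Epidermis is made mostly of keratinocytes, with Langerhans cells and, in mice, DETC among them. Wounded keratinocytes are known for a fast wave of immediate early genes such as those of the AP-1 transcription factors, followed by growth factors of the EGF family that are shed from the cell surface, and by chemokines and interleukin 1, which draw in and alert immune cells. Glycans at the keratinocyte surface are built by transferases of the Golgi apparatus and broken down in lysosomes, and they are among the candidates for what T cells and lectins recognise on stressed cells.

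The samples with replicate number 1 had a narrower range of values than the rest. The 30 min sample 1 was therefore also set against non-wounded sample 1, and 30 min sample 2 against non-wounded samples 2 to 4. The SD over probe sets was 1.81 in non-wounded sample 1 and 1.56 in 30 min sample 1, against 2.22 to 2.30 in non-wounded samples 2 to 4 and 2.20 in 30 min sample 2. The 30 min sample 2 correlated at 0.990 to 0.993 with non-wounded samples 2 to 4 across probe sets, while 30 min sample 1 correlated at 0.916 with non-wounded sample 1 and at 0.904 with 30 min sample 2. Below, the number 1 difference is 30 min sample 1 minus non-wounded sample 1, and the number 2 difference is 30 min sample 2 minus the mean of non-wounded samples 2 to 4. The 2 differences share no sample, and each rests on a single sample at 30 min.

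The test across all probe sets called no gene higher or lower at 30 min. With 2 samples at 30 min, a lack of calls does not show that no gene changed. The limma fit on the deposited values called 0 of 1246 probe sets (0%) at an adjusted p under 0.05, with 63 (5.06%) at an unadjusted p under 0.05 and a smallest adjusted p of 0.735. With the replicate number as a block it also called 0 (0%), but 136 probe sets (10.9%) then had an unadjusted p under 0.05, and the smallest adjusted p was 0.432. Both 30 min samples lay above all 4 non-wounded samples for 31 probe sets (2.49%) and below all 4 for 64 (5.14%). For a single gene an exact permutation test of 2 samples against 4 cannot give a two-sided p below 0.0667. Labels given at random would place 2 of 6 samples above all the others for a share of 0.0667, and below them for the same share. Neither share found here is above that, so a lack of overlap for a single gene below is a description. Among the fits that leave out a sample, probe sets passed only without 30 min sample 2. That fit gives sample 1, then alone in its group, the spread of the other groups. It also sets this sample of narrow range against a control mean that includes non-wounded samples 2 to 4, which have a wider range. These calls therefore do not show a change at 30 min.

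The number 2 differences of 1 or more on the log2 scale were all upward. The named genes among them belong to the wound response genes that were listed with earlier results of these data known. The number 2 difference reached that size for 4 probe sets (0.321%), those of Junb, Hbegf and Ccl20 and the unnamed probe set uc007bsm.1_psr1_s_at, and reached -1 or less for 0 (0%). At the smaller size of 0.5, 10 probe sets (0.803%) were higher and 42 (3.37%) lower, or 13 and 12 after quantile normalization. None of these 4 was higher by as much in the number 1 difference, and 3 of the 4 were below 0 there. For each of the 4, non-wounded sample 2 was the highest control, so the difference from that sample alone is smaller. Across all probe sets the number 2 difference ran from -0.95 to 1.71.

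Junb encodes a subunit of the AP-1 transcription factor and is an immediate early gene. Its log2 values were 7.34, 8.26, 7.71 and 7.52 in non-wounded samples 1 to 4, and 7.04 and 9.54 in 30 min samples 1 and 2. Sample 2 stood above every non-wounded sample and sample 1 below every one. The number 2 difference was 1.71 ± 0.36 (SE, from a limma fit of the samples numbered 2 to 4 in which the lone 30 min sample is assumed to vary like the others; adjusted p = 0.861), or 3.27-fold. The number 1 difference was -0.30, or 0.20 after quantile normalization and 0.08 with samples scaled to one median and SD. In the same fit the sulfatase gene Arsa, at -0.72, had the same adjusted p as Junb. Of the 22 early response genes listed, 2 were measured, Junb and Jund. Both were above 0 in the number 2 difference (median 0.98). Both were below 0 in the number 1 difference (median -0.23), and above 0 there after quantile normalization (median 0.39).

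Hbegf encodes heparin-binding EGF-like growth factor, which acts on the EGF receptor of keratinocytes and is shed after wounding. It was at 4.53, 5.13, 4.56 and 4.22 in the non-wounded samples and at 4.93 and 5.91 at 30 min, so that sample 2 was above the non-wounded range and sample 1 within it. The differences were 0.40 for number 1 and 1.27 ± 0.43 (SE) for number 2, a 2.41-fold higher level in the latter (limma adjusted p = 0.976 in the samples numbered 2 to 4). Ccl20 is the chemokine ligand of CCR6. It was at 3.91, 3.95, 2.91 and 3.19 without wounding and at 3.48 and 4.61 at 30 min. Non-wounded samples 3 and 4 were lower than 1 and 2, and 30 min sample 2 was above all of them. Its differences were -0.43 and 1.26 ± 0.53 (limma adjusted p = 0.976 for the latter). The unnamed probe set, singled out after its values were seen, was at 3.62, 3.64, 2.83 and 2.93 without wounding and at 3.08 and 4.35 at 30 min, a pattern like that of Ccl20, with differences of -0.54 and 1.22.

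The stretches upstream of Junb and Ccl20 are shown because these genes had the largest and the third largest number 2 difference. They are the 250 bases before the RefSeq transcription start in GRCm38.p6, 5′ to 3′ on the gene's strand, at chr8:84978749-84978998 on the minus strand for Junb and chr1:83116516-83116765 on the plus strand for Ccl20. Capitals mark a match to the kappaB motif.
Junb: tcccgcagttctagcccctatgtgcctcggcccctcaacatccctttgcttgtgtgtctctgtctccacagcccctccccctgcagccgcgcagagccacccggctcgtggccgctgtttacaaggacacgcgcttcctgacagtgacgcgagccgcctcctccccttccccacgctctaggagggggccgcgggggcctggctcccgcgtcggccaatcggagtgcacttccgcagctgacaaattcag
Ccl20: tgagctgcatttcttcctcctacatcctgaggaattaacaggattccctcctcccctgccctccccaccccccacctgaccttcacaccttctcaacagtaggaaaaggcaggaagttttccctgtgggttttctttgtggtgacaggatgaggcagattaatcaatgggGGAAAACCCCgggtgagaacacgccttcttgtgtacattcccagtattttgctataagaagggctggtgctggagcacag
Both strands were searched for the AP-1 motif TGANTCA, the kappaB motif and the CArG box, the site of serum response factor. The Ccl20 stretch held 1 kappaB match, whose first base lies at -80 from the start, and no match to the others; the Junb stretch held no match to any. Among 32851 such stretches of the RefSeq table, 3.90% held a kappaB match, 6.75% an AP-1 match and 1.47% a CArG box. A match is a description of the letters in this window.

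**Figure D1:**
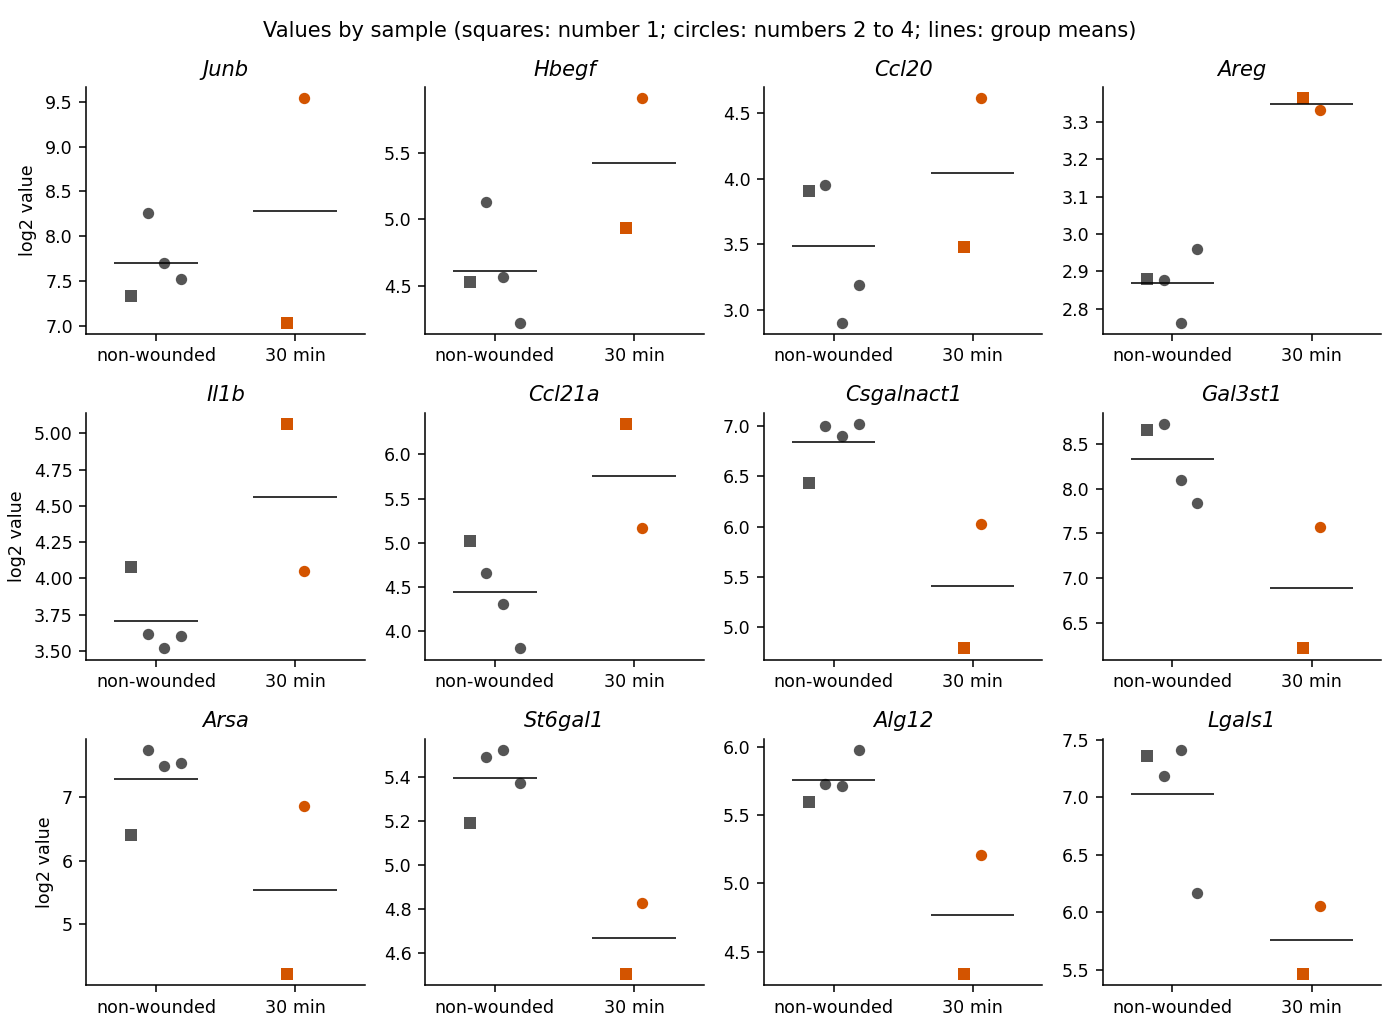
Log2 value (vertical axis, own scale in each panel) of 12 genes in the 4 non-wounded samples (grey) and the 2 samples at 30 min (orange); squares are samples numbered 1, circles the others, lines the group means. For Junb, Hbegf and Ccl20 the orange circle stands above all grey points and the square does not, whereas for Csgalnact1, Gal3st1, St6gal1, Alg12 and Lgals1 both orange points lie below every grey point.

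The other EGF family ligands measured, Areg and Btc, were also higher at 30 min in both differences, so that 3 of 3 measured ligands were, against 25.5% of all 909 genes. Areg encodes amphiregulin. It was at 2.88, 2.88, 2.76 and 2.96 in the non-wounded samples and at 3.36 and 3.33 at 30 min, and the groups did not overlap. The differences were 0.48 and 0.47, and the fit over all samples gave 0.48 ± 0.34 (SE, limma adjusted p = 0.737). The number 1 difference was 0.27 after quantile normalization and 0.30 with one median and SD. Btc, betacellulin, differed by 0.15 and 0.50, yet its 30 min values of 5.51 and 6.78 lay on both sides of most non-wounded values (5.36 to 6.75); in the fit it was at 0.10, and at -0.13 without non-wounded sample 1. The median of the 3 ligands was 0.48 in the fit, 0.22 with samples scaled to one median and SD and 0.51 after quantile normalization. Over all genes it was -0.05, -0.11 and -0.01. The 3 measured EGF family receptors had medians of 0.47 for number 1 and 0.03 for number 2.

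Among chemokines, the lymphoid chemokine Ccl21 was higher in both 30 min samples. The probe set of Ccl21a was at 5.02, 4.65, 4.30 and 3.80 without wounding and at 6.34 and 5.17 at 30 min, without overlap of the groups. The number 1 and number 2 differences were 1.32 and 0.92, and the fit gave 1.31 ± 0.42 (2.48-fold, limma adjusted p = 0.735). Ccl21c, a near-identical copy whose signal cannot be told apart from that of Ccl21a with certainty, differed by 1.22 and 0.87. With Msmo1, a methylsterol oxidase of cholesterol synthesis (2.27 and 0.65), these were the 3 probe sets (0.241%) higher by 0.5 or more in both differences. Msmo1 was at 7.33 in non-wounded sample 1 and 10.05 to 10.59 in the others, and at 9.60 and 10.98 at 30 min.

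Other chemokines had different values in the 2 samples. Cxcl1, which attracts neutrophils, was at -0.42 in the number 1 difference and 0.63 in the number 2 difference, and at 0.19 in the fit, a sign that turned after quantile normalization (-0.037) and with one median and SD (-0.11). Cxcl2, with the same receptor, differed by 0.74 and 0.29, and both of its 30 min values (3.47 and 3.18) were above the non-wounded range of 2.73 to 2.99. Cxcl10, which attracts activated T cells through CXCR3, was at 1.28 and 0.13. Xcl1, lymphotactin, was lower in both: it was at 6.32, 6.24, 5.81 and 5.28 without wounding and at 4.07 and 5.24 at 30 min. Its lowest non-wounded value was nearly that of 30 min sample 2, and its differences were -2.24 and -0.53 (fit -1.25 ± 0.42, limma adjusted p = 0.735).

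As a group, 13 of 17 measured CC chemokine ligands were higher in the fit, with a median of 0.19, and 10 of 13 CXC and other ligands, with a median of 0.20, against 426 of all 909 genes. These directions turned with samples scaled to one median and SD, where the medians were -0.06 and -0.10, and for the CC ligands also after quantile normalization (-0.02). In the number 2 difference 14 of 17 CC ligands and 10 of 13 CXC and other ligands were above 0, with medians of 0.12 and 0.13; for all genes the median was -0.02. The 19 measured chemokine receptors had a median of 0.01 there.

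In the interleukin 1 family the members went different ways. Il1b, the secreted inflammatory cytokine, was at 4.08, 3.62, 3.52 and 3.61 without wounding and at 5.06 and 4.05 at 30 min. Sample 1 was above the non-wounded range and sample 2 just below its top. The number 1 and number 2 differences were 0.99 and 0.47 (fit 0.85 ± 0.42, limma adjusted p = 0.735). Il1a, the form that keratinocytes store, was lower in both, by differences of -0.82 and -0.42, and its 30 min values of 4.77 and 5.48 lay below the non-wounded range of 5.59 to 6.04 (fit -0.70 ± 0.29, limma adjusted p = 0.735). Il18, another stored member, chosen after its values were seen, was at -0.45 and -0.42, with 30 min values of 6.09 and 8.01 against 6.54 in non-wounded sample 1 and 7.76 to 8.86 in the others. The alarmin Il33 was at 1.32 and 0.33. Of 17 measured members, 13 were lower in the fit (median -0.38), but in the number 2 difference 7 were lower and the median was 0.06. Il15, a cytokine that sustains intraepithelial T cells, was lower in both, with differences of -0.59 and -0.61. They were -0.77 and -0.41 after quantile normalization and -0.85 and -0.53 with one median and SD. Its values were 3.57 and 4.85 at 30 min against 4.16 in non-wounded sample 1 and 5.18 to 5.76 in the others.

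**Figure D2:**
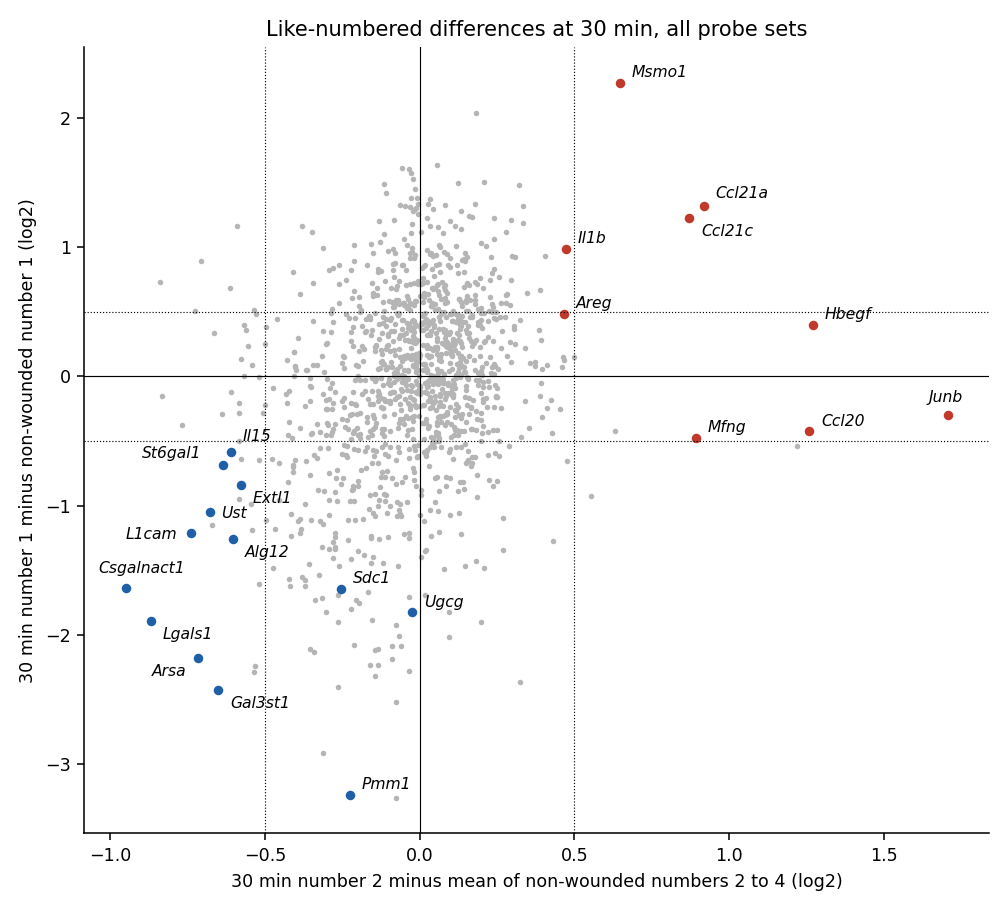
Number 2 difference (horizontal axis) against number 1 difference (vertical axis), both in log2 units, for 1246 probe sets; dotted lines mark 0.5 in either direction, and red and blue points are genes named in the text. Junb, Hbegf and Ccl20 lie far to the right near 0 on the vertical axis, and Csgalnact1, Lgals1, Arsa and Gal3st1 lie at the lower left.

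Among larger differences, more probe sets were lower in both 30 min samples than higher in both. Both differences were -0.5 or less for 20 probe sets (1.61%), against the 3 that were higher. The 20 were those of Csgalnact1, Lgals1, L1cam, Arsa, Ust, Sult1a1, Gal3st1, St6gal1, Il15, Alg12, Lman2l, Hpse, Extl1, Mpi, Galnt18, Hdac5, Xcl1, Notch3 and Fgf13 and a second probe set of Ccl27a. Many of these encode enzymes that build or modify glycans or proteins that bind them, as do many of the genes measured. The lower and higher counts were 12 and 3 with samples scaled to one median and SD, and 5 and 5 after quantile normalization. Whatever the size, both differences were below 0 for 365 probe sets and above 0 for 351, or 323 and 338 after quantile normalization. Single differences were of unequal size: the number 1 difference was 1 or more for 65 probe sets (5.22%) and -1 or less for 125 (10.0%), so a large number 1 difference alone was common.

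Csgalnact1 had the lowest number 2 difference of all probe sets. It encodes the transferase that starts the repeating chain of chondroitin sulfate. Its values were 6.43 in non-wounded sample 1, 6.90 to 7.02 in the other non-wounded samples, and 4.79 and 6.02 at 30 min, both below all controls. The differences were -1.64 and -0.95, and the fit gave -1.43 ± 0.39 (SE, limma adjusted p = 0.735, and -1.19 ± 0.27 and 0.432 with the replicate block).

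Other chondroitin and dermatan sulfate genes were mostly lower as well. Ust, which sulfates uronic acids of these chains, was at 9.40, 9.03, 9.25 and 9.74 without wounding and 8.35 and 8.66 at 30 min, with differences of -1.05 and -0.68. A second probe set of Ust gave 0.48 and -0.53, so the probe sets disagreed for number 1. Of 18 measured genes of this synthesis, 14 were lower in the fit, with a median of -0.28, or -0.08 after quantile normalization and -0.22 with one median and SD. Both differences were below 0 for 11 of the 18 (61.1%) and above 0 for 0, whereas among all genes the shares were 33.3% and 25.5%. After quantile normalization the counts were 8 and 2.

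Lysosomal glycosidases and sulfatases, which take glycans and sulfated lipids apart, were lower in most cases. Arsa, the sulfatase that breaks down sulfatide, was at 6.40, 7.73, 7.47 and 7.52 without wounding and at 4.22 and 6.86 at 30 min. Sample 2 was below non-wounded samples 2 to 4 but above non-wounded sample 1, and the differences were -2.18 and -0.72. The fit gave -1.74 ± 0.64 (limma adjusted p = 0.735). Neu1, the lysosomal sialidase, was at -1.14 and -0.31, and both 30 min samples were below the non-wounded range of 5.08 to 5.44.

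Of 21 measured lysosomal genes, 18 were lower in the fit, with a median of -0.59, and 20 were below 0 in the number 2 difference. Both differences were below 0 for 14 (66.7%) and above 0 for none of the 21. After quantile normalization these counts were 12 and 1, and 16 genes were below 0 in the number 2 difference. The median stayed below 0 with the replicate block (-0.31), with one median and SD (-0.39) and after quantile normalization (-0.20). It was -0.58 for number 1 and -0.31 for number 2, against -0.04 and -0.02 over all genes. At an unadjusted p under 0.05 there were 5 of 21, against 56 of all 909 genes. Both 30 min samples were below all controls for 5 of 21, against 57 of 909.

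**Figure D3:**
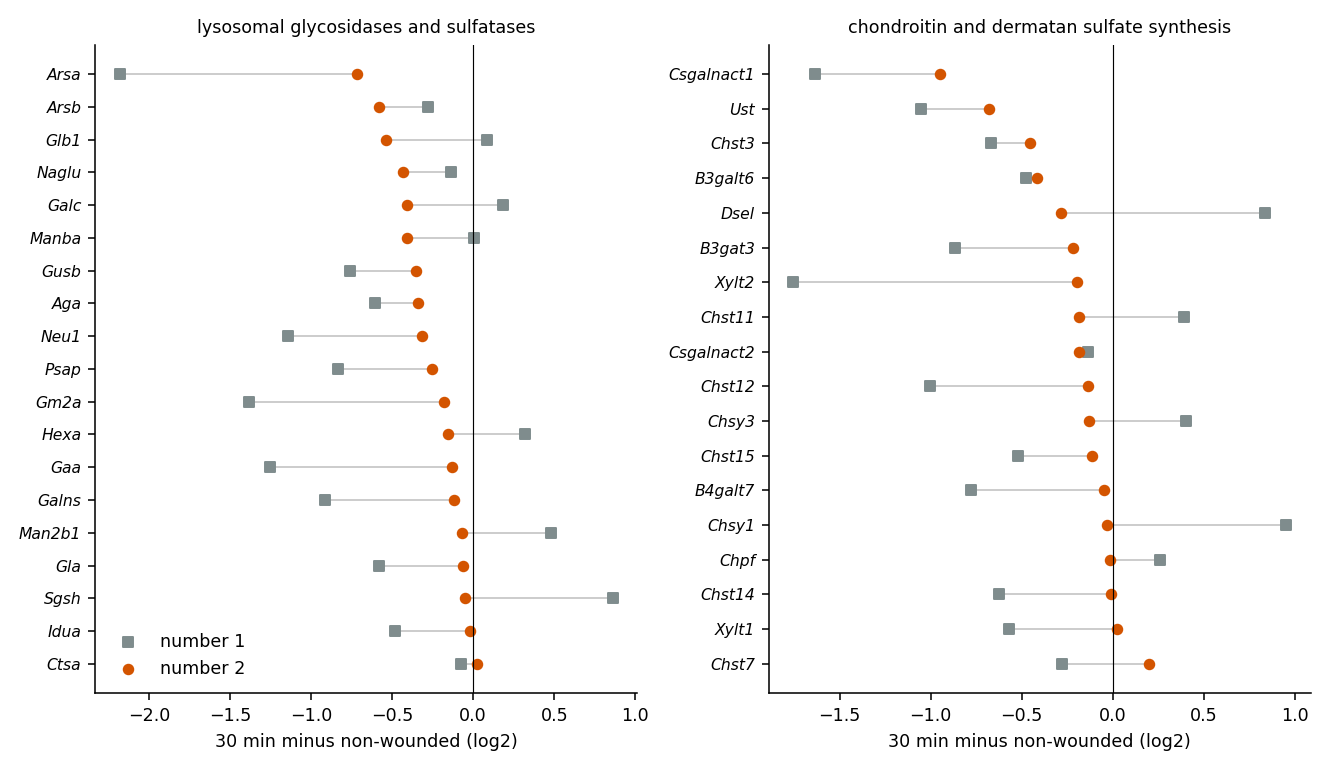
Number 1 difference (grey squares) and number 2 difference (orange circles), 30 min minus non-wounded in log2 units, for 19 of the 21 measured genes of lysosomal breakdown (left) and the 18 of chondroitin and dermatan sulfate synthesis (right), ordered by the number 2 difference. Nearly all circles lie left of 0 and within 1 log2 unit of it, while the squares spread from about -2 to 1.

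Sulfatide is made by Gal3st1, which adds sulfate to galactosylceramide, and this gene was also lower. It was at 8.65, 8.72, 8.10 and 7.84 in the non-wounded samples and at 6.22 and 7.57 at 30 min, below all controls, with differences of -2.43 and -0.65 (fit -1.43 ± 0.41, limma adjusted p = 0.735). B4galnt1, which makes GM2 and GD2 gangliosides, was at -1.32 and -0.27, again with both 30 min samples below the controls. Ugcg, the enzyme that makes glucosylceramide, chosen after its values were seen, was at -1.83 and -0.02. Of 20 measured glycosphingolipid synthesis genes, 11 were lower in the fit and their median of -0.01 was near that of all genes. Both differences were below 0 for 11 (55.0%) and above 0 for 3.

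Among the genes of capping sugars, St6gal1 was lower in both samples, by nearly the same amount in the deposited values only. This transferase adds sialic acid to N-glycans and so makes the ligand of the B cell lectin CD22. Its values were 5.19, 5.49, 5.52 and 5.37 without wounding and 4.50 and 4.83 at 30 min, below all controls. It differed by -0.69 and -0.63 (fit -0.73 ± 0.23, limma adjusted p = 0.735). The 2 differences were -0.94 and -0.45 after quantile normalization and -0.80 and -0.56 with one median and SD. Over 27 sialic acid genes 16 were lower in the fit, with a median of -0.04, and both differences were below 0 for 12 (44.4%) and above 0 for 3. Of 14 measured fucose genes 11 were lower in the fit, with medians of -0.49 for number 1 and -0.23 for number 2. The number 2 median was -0.08 after quantile normalization and -0.16 with one median and SD. Both differences were below 0 for 9 (64.3%) and above 0 for 1, or 9 and 3 after quantile normalization. Among all 909 genes 483 were lower in the fit, and both differences were below 0 for 33.3% and above 0 for 25.5%.

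In N-glycan assembly, Alg12, which adds a mannose to the lipid-linked precursor, was at 5.60, 5.73, 5.72 and 5.98 without wounding and at 4.34 and 5.21 at 30 min. The groups did not overlap, and the differences were -1.26 and -0.60 (fit -0.98 ± 0.28, limma adjusted p = 0.735). Mpi, which makes mannose 6-phosphate and was chosen after its values were seen, was at -0.99 and -0.55. Ddost, a subunit of the oligosaccharyltransferase, was at -1.11 and -0.39. By contrast Dpagt1, which starts the precursor, was at -1.89 and -0.15, and Pmm1, a phosphomannomutase, at -3.24 and -0.22, so that nearly all of their difference lay in sample 1. The 16 measured genes of precursor assembly and transfer had a median of -0.29 in the fit that turned to 0.01 after quantile normalization.

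Heparan sulfate genes, proteoglycans and O-glycan enzymes held single members that were lower in both samples. Extl1, an exostosin-like transferase of heparan sulfate, was at 7.14, 8.04, 7.24 and 7.30 without wounding and at 6.30 and 6.95 at 30 min, with differences of -0.84 and -0.58. Hpse, the heparanase that cuts these chains, was at -0.50 and -0.58 with 30 min values of 4.21 and 4.47, below the non-wounded range of 4.71 to 5.29. As a group, 13 of 24 heparan sulfate genes were lower, a share near that of all genes (483 of 909). Galnt18, a transferase that starts O-glycans, was at -1.19 and -0.54, and Pomt1, which starts O-mannose glycans, at -1.49 and -0.47. The heparan sulfate proteoglycans Sdc1, the main syndecan of keratinocytes, and Gpc1 were at -1.65 and -2.41 in the number 1 difference but -0.25 and -0.26 in the number 2 difference.

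In the fit on the deposited values galectins were mostly lower, whereas adhesion molecules and C-type lectins were mostly higher. Of 8 measured galectins 6 were lower in the fit (median -0.20, or -0.07 with one median and SD). With that scaling 4 of the 8 were below 0 in the number 1 difference and 3 in the number 2 difference. Lgals1, galectin 1, which binds galactose-containing glycans on T cells, was at 7.36, 7.18, 7.41 and 6.17 without wounding and at 5.46 and 6.05 at 30 min. Both lay below all controls, though non-wounded sample 4 was close to 30 min sample 2; the differences were -1.90 and -0.87. Lgals7, the galectin of stratified epithelia, was at -0.84 and -0.08, and its fitted difference of -0.54 turned to 0.45 with one median and SD. The sialic acid lectin Cd22 was higher, by 1.01 and 0.21, with both 30 min samples (4.97 and 4.02) above the non-wounded range of 3.76 to 3.96. Of 12 measured adhesion molecules and selectins 10 were higher in the fit, and both differences were above 0 for 8 (66.7%), against 25.5% of all genes. Their median was 0.19, or 0.01 with one median and SD and 0.04 after quantile normalization. L1cam, a neural adhesion molecule, was one of the 2 that were lower, at -1.21 and -0.74. Of 34 C-type lectins and NK receptors 24 were higher in the fit, with a median of 0.13 that turned to -0.06 with one median and SD. In the number 2 difference 19 of the 34 were below 0. Icam1, the ligand of leukocyte integrins, was at 0.34 and 0.15, and Icam2, found on endothelium, at 0.44 and 0.32.

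In the Notch pathway, which steers keratinocyte differentiation, 12 of 14 measured genes were lower in the fit (median -0.43, or -0.12 after quantile normalization). Of all 909 genes 483 were lower. Notch3 was at -1.60 and -0.52, the fringe transferase Rfng at -0.64 and -0.40 and the target gene Hes1 at -1.27 and -0.23. Mfng, another fringe transferase, chosen after its values were seen, went against its relatives in sample 2. It was at 5.25 in non-wounded sample 1, 4.83 to 5.04 in the others and 4.77 and 5.85 at 30 min, differences of -0.47 and 0.89. In the number 2 difference 9 of the 14 genes were below 0, against 496 of all 909 genes. After quantile normalization both differences were below 0 for 7 of the 14 and above 0 for 3.

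**Figure D4:**
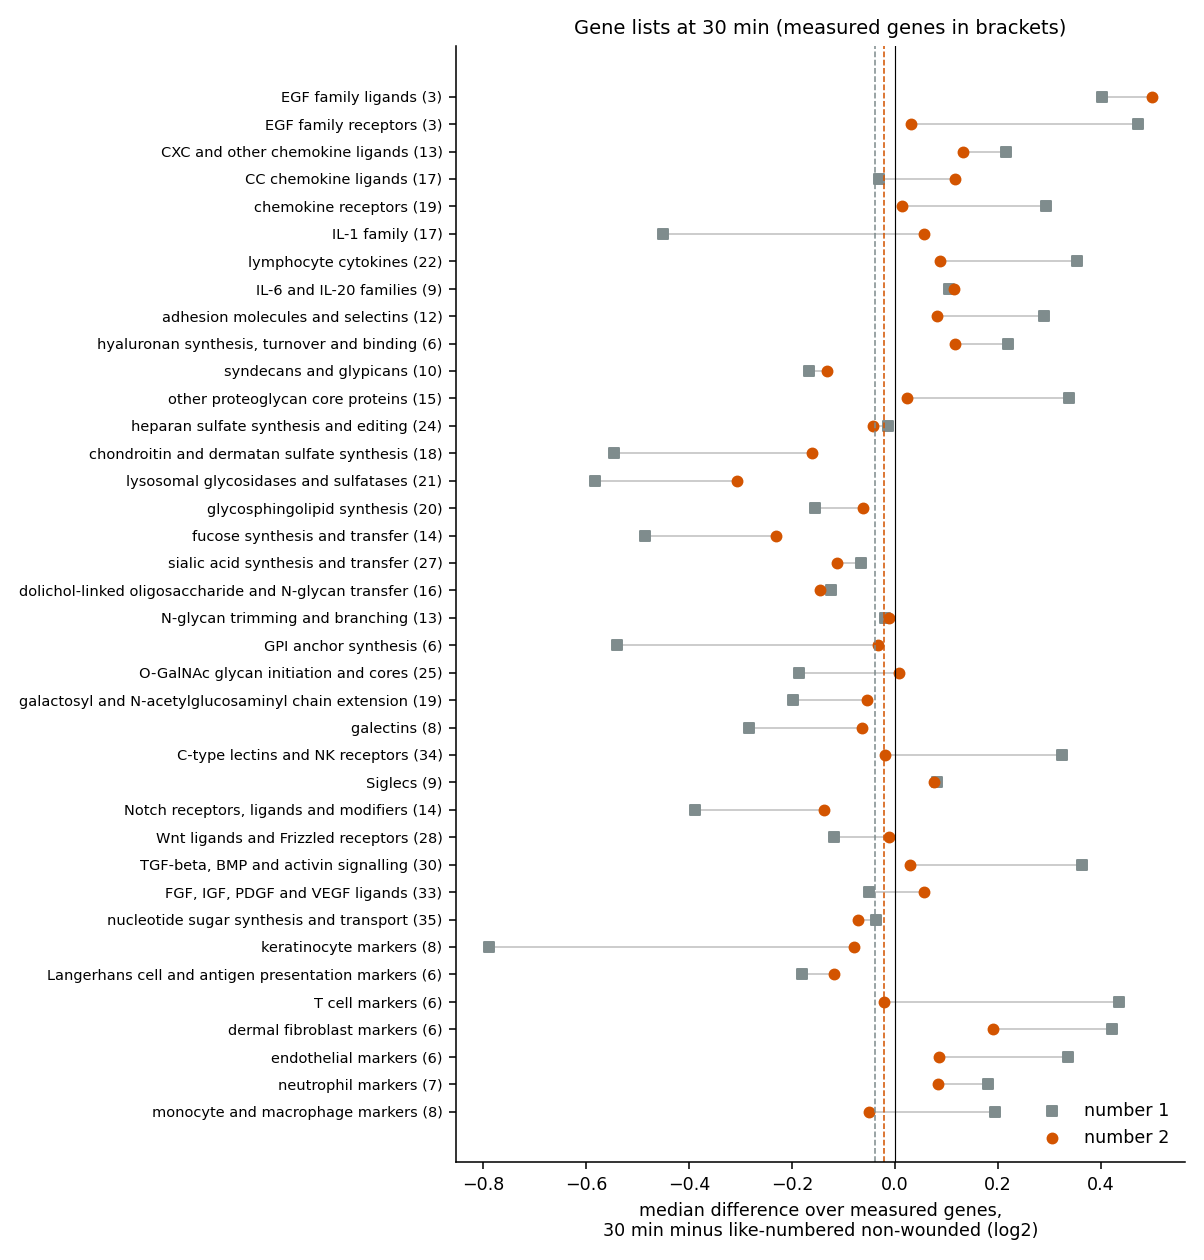
Median over the measured genes of each list with 3 or more of them (number of genes in brackets) of the number 1 difference (grey squares) and the number 2 difference (orange circles), in log2 units; dashed lines are the medians over all 909 genes. EGF family ligands lie highest in the number 2 difference (0.50) and lysosomal genes lowest (-0.31), and most number 2 medians stay near the dashed line.

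Markers of the cell types that epidermis and adjoining skin can hold moved with these differences, mainly in sample 1. Of the listed keratinocyte markers 8 of 17 were measured, and 7 were lower in the fit (median -0.44, or 0.03 with one median and SD). Their summed log2 level was 68.9 to 71.7 in the non-wounded samples and 63.8 and 70.9 at 30 min. All 6 measured dermal fibroblast markers were higher in the fit, with sums of 21.3 to 23.3 without wounding and 26.2 and 22.9 at 30 min; in the number 2 difference Fmod and Dcn, both collagen-binding proteoglycans, were at 0.40 and 0.46, Dcn being chosen after its values were seen. All 6 endothelial markers were higher too, with sums of 19.2 to 21.5 against 23.5 and 20.6. Set against non-wounded samples 2 to 4 alone, 30 min sample 2 thus stood higher in both sums (21.3 to 22.0 and 19.2 to 20.2). With one median and SD the fitted medians were 0.16 for the fibroblast and 0.16 for the endothelial markers. In the number 2 difference 2 of 6 fibroblast and 3 of 6 endothelial markers were then below 0. The part of these cell types in the results above was not tested. In bulk RNA, fewer cells of a type and less RNA per cell cannot be told apart.

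For the labelled cell type, 6 of 18 T cell markers were measured, and the CD3 and T cell receptor chains were not analysed here. Klrk1, the activating receptor NKG2D of DETC, was at 2.27 to 2.55 without wounding and at 3.12 and 2.37 at 30 min. The T cell sums were 20.6 to 22.0 without wounding and 23.9 and 20.9 at 30 min. The median level of the T cell markers without wounding was 3.09 to 3.84, against 8.61 to 8.91 for the keratinocyte markers. Which of the described materials was hybridised was not tested. Cd207, the lectin of Langerhans cells, was at 7.11 in non-wounded sample 1 and 7.57 to 8.41 in the others, and at 6.57 and 7.99 at 30 min, and the Langerhans sums were 36.1 to 38.6 against 34.9 and 37.4. Neutrophil markers, 7 measured, summed to 26.6 to 28.0 without wounding and 27.8 and 28.2 at 30 min. Monocyte and macrophage markers, 8 measured, summed to 30.2 to 30.9 and to 31.8 and 29.4. The part of these cells was not tested.

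The 2 samples at 30 min differed from their own controls by unequal amounts for many probe sets. Number 1 minus number 2, this was -3.02 for Pmm1, -1.85 for the growth factor Tgfb1 and -1.73 for Dpagt1. The FGF receptor Fgfr1 and the cytokine subunit Il23a were at 1.48 and 1.24 for number 1 but 0.32 and 0.17 for number 2. A limma test of this contrast called 69 probe sets above 0 (5.54%) and 51 below 0 (4.09%). It has no estimate of the spread of the single samples numbered 1 and takes it from samples numbered 2 to 4. These calls therefore do not show that the 2 samples responded unequally. Across all 1246 probe sets the differences had an SD of 0.73 for number 1 and 0.23 for number 2. They correlated at a Pearson's r of 0.27 (Spearman's rho 0.26), or 0.15 after quantile normalization, and had the same sign for 716 probe sets (57.5%); the probe sets share their arrays and their level, so this is a description.

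The number 1 difference went with the level of the probe set. When the probe sets were split into 4 groups of equal size by mean level, its median was 0.27 in the dimmest group and 0.07 and -0.03 in the next 2. In the brightest group it was -0.50, with 81 of 312 probe sets above 0. With samples scaled to one median and SD the medians of the dimmest and brightest groups became 0.03 and -0.25. For number 2 they were 0.02, 0.06, -0.05 and -0.11 from the dimmest to the brightest. The median level was 8.61 to 8.91 for the keratinocyte markers and 5.39 to 6.22 for the lysosomal genes in the non-wounded samples, against 4.42 to 4.72 over all genes. It was 5.86 to 7.60 for the Notch pathway genes, 3.61 to 3.94 for the dermal fibroblast markers and 3.03 to 3.56 for the endothelial markers. The part of the level in the number 1 values of these lists was not tested.

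**Figure D5:**
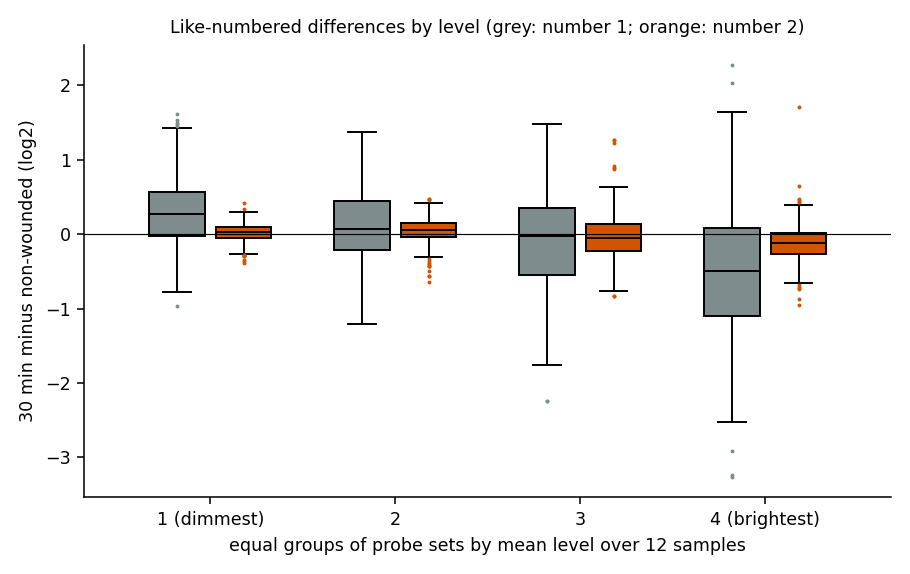
Number 1 (grey) and number 2 (orange) differences, 30 min minus non-wounded in log2 units, in 4 equal groups of the 1246 probe sets by mean level over 12 samples; boxes span the quartiles with the median, whiskers reach 1.5 times the box height and dots lie beyond. The grey median goes from 0.27 in the dimmest group to -0.50 in the brightest, and the orange one from 0.02 to -0.11.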

How the data were processed

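Total RNA (Trizol) was labelled as biotinylated cRNA by the Affymetrix procedure, per the labels' protocols. The deposited values are log2 expression, 1 table of 1246 probe sets by 12 samples, and the submitters' processing notes name RMA, which corrects background, normalizes and summarises probes. The array design, versions and hybridisation batches are not stated. The columns still differ in spread, so rescaling was tried as an alternative. No detection call comes with these values, and precision is limited by the number of arrays.

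Probe set accessions were matched without versions to the RefSeq gene table of GRCm38.p6: 963 of 1246 matched 1 symbol and 283 matched none. A gene with several probe sets (48 genes) is given by the one with the highest mean. Groups and replicate numbers come from the titles. The comparison used limma 3.58.1 (R 4.3.3; lmFit and eBayes on all 12 samples, group means, no covariate; Benjamini-Hochberg over 1246 probe sets, threshold 0.05). A fit with a mean for each group and kind of sample (number 1, or 2 to 4) tested whether the like-numbered differences differ, with the spread taken from the groups that have several samples numbered 2 to 4; it has no estimate of the spread of the samples numbered 1, so nothing rests on it. The fits were tested on simulated data. The comparison was also fitted with the replicate number as a block, since deviations of same-numbered samples at 2 h and without wounding correlated at 0.796, 0.449, 0.651 and 0.297, all over 0.1 (30 min and non-wounded: 0.742 and 0.436).

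Genes named are the 12 with the smallest p per direction, the 12 per direction with the largest smaller like-numbered difference of constant sign, up to 3 per gene list by p, and listed wound response genes; others are said to be chosen after their values were seen, and of the 20 probe sets lower in both differences Fgf13 and the second Ccl27a probe set are such. The lists' counts include 2 genes that are not reported here. The samples, gene lists and markers were chosen with earlier results of these data known, so no list count is independent evidence. Alternatives were random blocks, a term for number 1, subsets of samples and probe sets, quantile normalization, centring, one median and SD, array weights, a trend, other thresholds and leaving out each sample. Figures used matplotlib 3.10.9 in Python 3.11.15.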

Additional observations from a re-analysis of the deposited data

Results flagged for a closer look

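In the 4 non-wounded samples, sample 1 stood apart from the others for several genes named here, with a gap to the nearest other sample that, as a share of the group's range, is above Dixon's critical value; chance alone gives this for about 1 in 20 groups. Il33 was at 6.36 in that sample against 8.82 to 9.02 in the others, and Msmo1 at 7.33 against 10.05 to 10.59. Icam2 was at 3.74 against 2.89 to 2.96, Cd93, a receptor of endothelial and myeloid cells, at 2.77 against 2.33 to 2.39 and Il23a at 3.10 against 2.53 to 2.61. Non-wounded sample 2 stood apart for Dpagt1 (7.35 against 7.01 to 7.02).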

How the results depend on the processing

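The limma fit called 0 probe sets under every alternative run, the replicate block included (0 calls, 136 at an unadjusted p under 0.05), except without 30 min replicate 2 (range 0 to 74 over left-out samples). Probe sets higher in both like-numbered differences numbered 3, or 5 after quantile normalization and 0 at a size of 1 or more; those lower numbered 20, or 5 after quantile normalization, 12 with one median and SD, 0 at a size of 1 or more and 17 to 39 with a non-wounded sample left out (39 without non-wounded replicate 4). Those above the non-wounded range numbered 31, or 65 after quantile normalization, 73 with median centring, 63 with one median and SD and 36 to 465 with a sample left out; those below numbered 64, or 72 to 358. Without the samples numbered 1, added after seeing the data, they were 286 and 272; fewer samples widen these counts by construction. The 69 and 51 calls for the difference between the like-numbered differences, a test with no estimate of the spread of the samples numbered 1, became 179 and 141 after quantile normalization and 198 and 186 with one median and SD.

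Of the genes named, some changed sign in the fit. Over the fits without 1 sample, lowest and highest values came without the 30 min sample 1 or 2 except where stated. They were -0.67 to 1.83 for Junb, -0.0078 to 1.12 for Ccl20, -0.53 to 0.73 for Btc, -0.17 to 0.55 for Cxcl1, -0.61 to 0.98 for Il33 and -0.26 to 0.82 for Mfng, each lowest without replicate 2. They were -1.08 to 0.0052 for Lgals7, -2.65 to 0.25 for Ugcg, -1.29 to 0.13 for Cd207, -2.28 to 0.024 for Fgf13 and -1.87 to 0.050 for Il18, each highest without replicate 1, and -0.0088 to 0.74 for Klrk1. For Msmo1 they were -0.038 (without non-wounded replicate 1) to 1.40. Without that sample Btc was at -0.13 and Il33 at -0.46. Cxcl1 was at -0.037 after quantile normalization and -0.11 with one median and SD, Il33 at -0.45 with array weights, Lgals7 at 0.45 with one median and SD and 0.11 with that and the block, and Cd207 at 0.20 and 0.023 with the block after quantile normalization and with one median and SD. The cause was not tested. Signal over background is not known here.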

Other observations

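Further values of gene groups and single genes are given here, and some of the groups were higher mainly in sample 1. Of 22 measured lymphocyte cytokines 19 were higher in the fit (median 0.30, or 0.15 with one median and SD), with medians of 0.35 for number 1 and 0.09 for number 2. Of the 9 measured Siglecs, lectins for sialic acid, 8 were higher in the fit (median 0.12), which turned to -0.09 with one median and SD. Their medians were alike in the number 1 (0.08) and number 2 (0.08) differences. The 34 measured C-type lectins and NK receptors had medians of 0.33 for number 1 and -0.02 for number 2, and the 30 genes of TGF-beta, BMP and activin signalling 0.36 and 0.03. Wnt5a, a secreted Wnt ligand, was lower in the number 2 difference (-0.64) and at -0.29 in number 1, with both 30 min samples (3.70 and 3.52) below the non-wounded range of 3.73 to 4.62. Blood cell growth factor receptors went opposite ways in both samples: Csf3r, the receptor of the neutrophil growth factor G-CSF, was at 0.93 and 0.30, and Csf2ra, a receptor subunit for GM-CSF, at -0.64 and -0.48.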
